A study of Mus musculus with 9 samples.

Results

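The homozygous deletion upstream of Xist was compared with wild-type clones in mouse extra-embryonic endoderm stem (XEN) cells by RNA-seq. The comparison took 4 of the 9 libraries of the series: the 2 libraries whose titles carry the name DeltXp_DeltXm (called DXp_DXm here) and the 2 libraries of wild-type clone 1 and clone 2 (called WT_clone). They were joined by gene identifier over the 11512 genes with complete values in both deposited tables. These genes covered chromosome X (2626 genes), chromosome 1 (3446), chromosome 2 (3794) and the first part of chromosome 3 (1646), so other chromosomes were not analysed here.

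All libraries came from XEN cells of a hybrid between M. m. molossinus and M. musculus, which the labels of the deletion libraries and of WT_EV call female. DXp_DXm carries the deletion on both X chromosomes, and its genotype label reads homozygous Xist deletion, while the series' text places the deletion upstream of Xist. WT_clone carries no deletion. The 2 DXp_DXm titles share the name D3, so genotype and line cannot be told apart if D3 is a single line. Of the other 5 libraries, 2 carry the deletion on the paternal X alone (called DXp, both titled D1) and 3 are a wild type named WT_EV. They entered the same fit to estimate the spread between libraries. Neither the ends of the deleted segment nor the library kit of each sample is stated. The series' text calls the deletion libraries biological replicates without saying whether each was a culture or a clone of its own, so the p-values below measure only the spread among these libraries, which may be technical. The comparison asks what the deletion changes in XEN cells, as the series' text puts it.

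XEN cells are stem cells of the primitive endoderm, the lineage that forms the yolk sac, and they secrete much of the protein of the basement membrane. In female cells of this lineage inactivation is imprinted: the X inherited from the father is silenced. Inactivation depends on Xist, a long non-coding RNA that coats the chromosome it is made from and recruits silencing and polycomb complexes.

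The shared genes held 6215604 and 6526628 counts in DXp_DXm and 7641676 and 5825838 in WT_clone. Levels are given as CPM, read counts scaled to the TMM-normalised library size, which do not correct for gene length. The levels of XEN markers varied by gene, with Sfmbt2 at 1439.8 and 1718 CPM in WT_clone and 1537 and 1567 in DXp_DXm, and the receptor Lrp2 at 5732 and 4638 against 4284 and 3721. Sox17, a transcription factor of the endoderm, stood at 1367 and 367 CPM in WT_clone and 1077 and 1087 in DXp_DXm. Foxa2 stood at 571 and 115 against 216 and 97.1 CPM, and Hnf4a at 179 and 56.0 against 50.4 and 40.7 CPM. Gata5 had 0 counts in all 9 libraries, and Rhox5 stayed at or under 4.06 CPM in the 4 libraries compared. The 2 clones differed from each other: 10.1% of 2704 genes differed at least 4-fold between them, against 2.96% between the 2 DXp_DXm libraries. Lamc1, which encodes the laminin gamma 1 chain, took 10.75% of the counts over the shared genes in WT_clone replicate 1 and 2.84% in replicate 2.

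The sequence of the Xist promoter is shown because the deletion is described as lying upstream of it. The window is chrX:103483184-103483483 on the minus strand (GRCm38.p6, from RefSeq), with 250 bases before the start site and 50 after it. Capitals mark matches to AANATGG on either strand, the core letters bound by the zinc-finger protein YY1. The window held 2 matches, and 16.1% of 32851 mouse promoter windows of this length held at least 1.
Xist: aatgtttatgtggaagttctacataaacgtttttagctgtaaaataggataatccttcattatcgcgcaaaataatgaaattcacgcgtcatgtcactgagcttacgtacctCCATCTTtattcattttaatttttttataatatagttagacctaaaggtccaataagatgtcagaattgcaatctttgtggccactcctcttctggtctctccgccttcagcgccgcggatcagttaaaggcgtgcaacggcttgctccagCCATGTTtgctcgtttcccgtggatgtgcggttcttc

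Xist RNA was present in every library of the homozygous deletion, at 22976 and 39458 CPM, against 15421 and 20658 CPM in the wild-type clones. Both DXp_DXm values lay above both WT_clone values, and the lower DXp_DXm library was nearer to the clones than to the other DXp_DXm library. The fitted log2 change was 0.79 (SE 0.42, 95% interval -0.12 to 1.71), which did not pass at an adjusted p of 0.189. With offsets for the GC content and length of each gene, fitted library by library, it was 0.06 (adjusted p 0.962). The paternal deletion held 75748 and 68329 CPM, above both DXp_DXm libraries, and the direct difference of DXp_DXm from DXp was a log2 change of -1.21 (adjusted p 0.19), which did not pass, though it did with DESeq2 (-1.29, adjusted p 0.0466). A transcript on the opposite strand overlaps Xist, and no source states the strand setting of the counting, so reads of either may be in this count.

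Around Xist, 16 genes of a list were tested, of which 2 rose and 0 fell, while 14 missed the threshold, with a median log2 change of 0.64. Over all tested genes the share that passed was 25.0% (824 of 3302), with 7.36% higher and 17.6% lower, which puts the 2 of 16 below the share called in both directions together and above the share called higher. Chic1 had 103 and 66.0 CPM in WT_clone and 199 and 349.8 in DXp_DXm, a log2 change of 1.70 (SE 0.40, adjusted p 0.00974). Every DXp_DXm library was above both clones. The DXp values were also above the clones, at 544 and 482 CPM. With the offsets the change of Chic1 was 0.88 (adjusted p 0.15), and 0 of the 16 genes passed, with a list median of 0.34. Chic1 did not pass without DXp_DXm replicate 2 (adjusted p 0.0749).

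**Figure D1:**
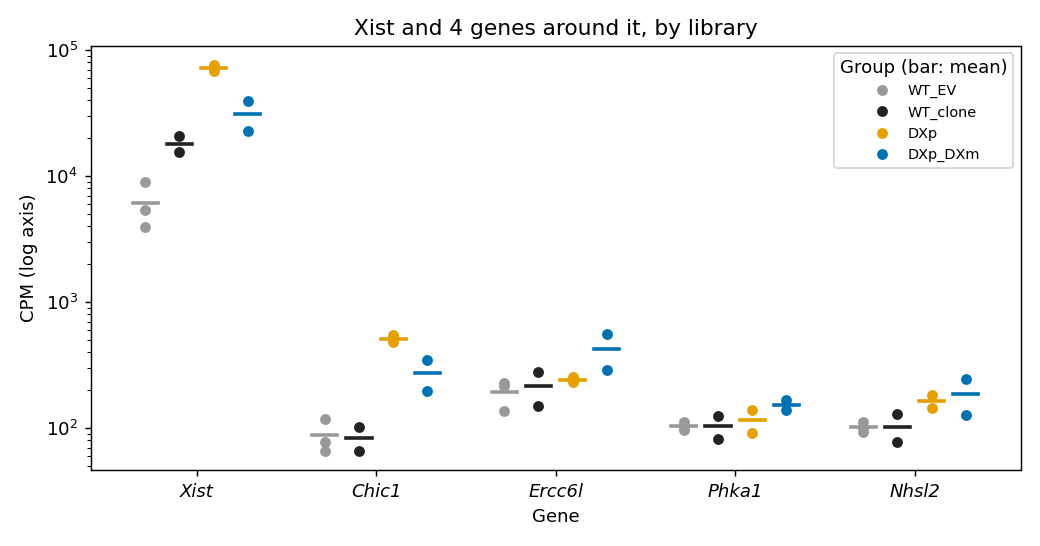
TMM-scaled CPM (log axis) of Xist and 4 genes around it in each library of the 4 groups, with a bar at each group's mean. Xist is highest in DXp, and for Chic1 both DXp_DXm points lie above both WT_clone points.

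Across the 3302 genes tested, 243 were higher and 581 lower in the homozygous deletion than in the clones. The groups did not overlap for 823 of these 824 genes, nor for 59.3% of all genes tested. A change of at least 2-fold was seen in 213 of the higher and 571 of the lower genes. Leaving out DXp_DXm replicate 1 brought the 824 down to 495, and leaving out replicate 2 to 415. The change followed the GC content of the genes. Genes with a GC content under 42% had a median log2 change of 0.78, with 122 of 755 higher and 2 lower. Those from 42 to 48% had a median of 0.36, with 104 of 1089 higher and 33 lower. From 48 to 54% the median was -0.75, with 15 of 923 higher and 232 lower, and above 54% it was -2.45, with 2 of 530 higher and 314 lower. GC content and length together accounted for 44.0% of the variance of the log2 change across genes.

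Offsets for GC content and length left 229 genes that passed, 68 higher (2.06%) and 161 lower (4.88%), together 6.94% of those tested. Of these, 35 of the higher and 155 of the lower genes had passed without offsets in the same direction, 0 had passed in the opposite direction, and 39 had not passed. The result with offsets is therefore given beside most genes described below, and for gene lists only where stated. Counts of list members are to be read beside the 7.36% higher and 17.6% lower over all genes tested. The 2 wild-type groups also differed from each other, with 1011 genes called between WT_clone and WT_EV (30.6%). Between the paternal deletion DXp and WT_clone 1329 were called (40.2%). Small RNA genes took 0.34 to 0.4% of the counts over the shared genes in WT_EV and 0.014 to 0.029% in the other libraries. Levels in WT_EV are therefore given as description and do not settle which group moved. DXp against WT_clone had the same GC gradient, with class medians of 1.16, 0.41, -1.12 and -2.79 from the lowest to the highest GC class, but it shares the clone libraries. Between DXp_DXm and DXp, which come from 1 table, the medians were -0.34, -0.02, 0.33 and 0.23, and GC content and length accounted for 6.83% of the variance. WT_EV comes from that table too, and 1927 genes were called between DXp_DXm and WT_EV. For WT_clone minus WT_EV the class medians were 0.28, 0.41, -0.16 and -0.80. Class medians of DXp_DXm minus WT_EV, from the same table, were not computed. The source of the gradient was not tested. Without WT_EV in the fit Cubn, Itm2a, Nsdhl, Rbbp7, Samhd1, Thbd, Usp9x and Utp14a lost their calls, and in the 4 libraries alone Elf3, Gpc3, Hspa5, Mbnl3, Rbl1 and Slitrk4 did too. Fn1 lost its call without the filter on low counts. The clone libraries come from a separate table, so group and table cannot be told apart in the comparison with them.

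**Figure D2:**
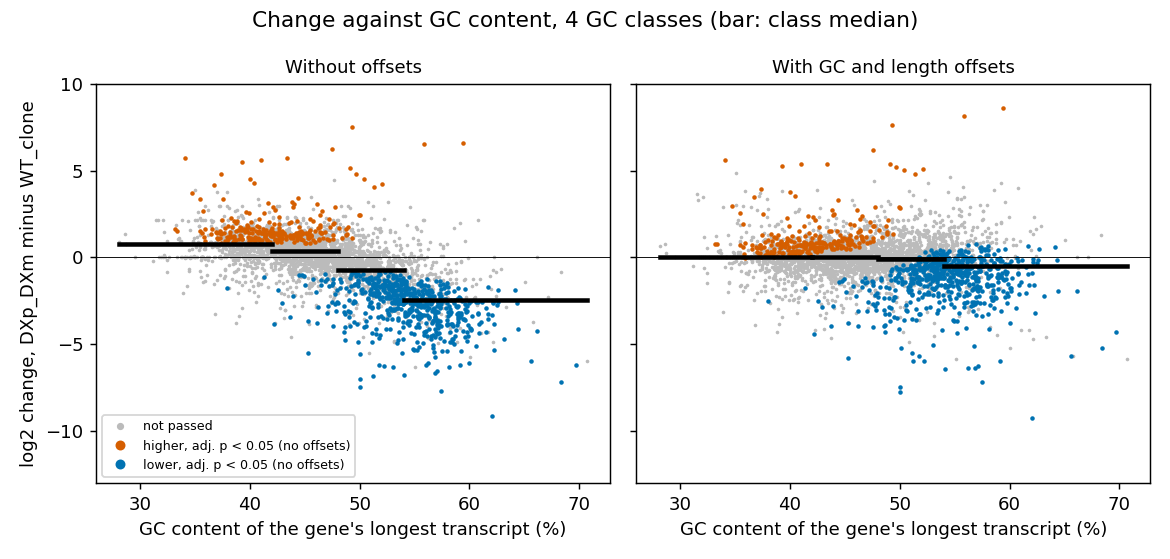
The log2 change of DXp_DXm minus WT_clone for each tested gene against the GC content of its longest transcript in percent, without offsets (left) and with offsets for GC content and length (right). Colours mark the genes that passed without offsets in both panels, and black bars are medians of 4 GC classes, which run from 0.78 to -2.45 on the left and from 0.02 to -0.48 on the right.

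The 10 genes with the largest rises included a gene of innate immunity, a pair of kinases and genes of the cilium and cytoskeleton. Tlr2, a receptor for bacterial lipoproteins on chromosome 3 (83836272 to 83841767, minus strand, GRCm38), had 0 counts in both clones and both DXp libraries, and 6.98 and 2.25 CPM in DXp_DXm. Against a floor of 3 counts over the clone group it was at least 19.3-fold higher (adjusted p 0.0127, and 0.036 with offsets). Only the DXp_DXm libraries and 1 WT_EV library (0.69 CPM) held any count, and the call was lost without DXp_DXm replicate 1 (adjusted p 0.0762). Its direct difference from DXp did not pass (adjusted p 0.118).

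Stk39, the kinase SPAK that regulates cation-chloride cotransporters, had 0.302 and 0.846 CPM in the clones and 26.7 and 14.7 CPM in DXp_DXm. The log2 change was 5.14 (SE 0.70, adjusted p 4.92e-04), and 5.35 with offsets (adjusted p 0.00497). DXp stood higher again, at 237 and 311 CPM, and the difference of DXp_DXm from DXp passed at -3.73 (adjusted p 0.0407). The WT_EV libraries held 30.9, 18.5 and 10.01 CPM, so both DXp_DXm libraries lay within the range of WT_EV. Both clones lay below that range and both DXp libraries above it.

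Wipf1, an actin regulator that binds the WASP protein, rose from 1.06 and 0.338 CPM to 18.0 and 23.5 CPM, which gave a log2 change of 4.83 (SE 1.08, adjusted p 0.00824). Mark1, a kinase of microtubule-associated proteins, had 0.905 and 2.03 CPM in the clones and 27.7 and 38.8 CPM in DXp_DXm (4.49, SE 1.08, adjusted p 0.0114). Ttc21b, a part of the transport machinery of cilia, had 5.73 and 1.69 CPM against 69.4 and 105 CPM (4.53, SE 0.87, adjusted p 0.00457). Each DXp_DXm library was far above both clones for these 3 genes, and all 3 passed with offsets, at 5.20, 5.04 and 3.79. Ttc21b in WT_EV ranged from 12.5 to 75.9 CPM, above both clones.

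Tmem169 on chromosome 1 (3.62 and 2.88 against 36.1 and 19.7 CPM, log2 change 3.09) and X-linked Rragb (1.51 and 2.03 against 18.8 and 10.9 CPM, 3.06) also passed with offsets (adjusted p 0.0203 and 0.0375). WT_EV held 8.65 to 19.0 CPM of Rragb, a range that took in both DXp_DXm libraries and lay above both clones. Rragb encodes a Rag GTPase that brings amino-acid signals to mTORC1 at the lysosome. Slitrk4, a neuronal adhesion protein on the X, Lekr1 and Itm2a rose by 3.69, 3.36 and 3.15 on the log2 scale and did not pass with offsets (adjusted p 0.0909, 0.06 and 0.135). Itm2a had 31.2 and 106 CPM in DXp_DXm, and without replicate 2 its change was 2.08 (adjusted p 0.225). Lekr1 likewise did not pass without DXp_DXm replicate 2 (adjusted p 0.103), and Itm2a was also lost without either clone.

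**Figure D3:**
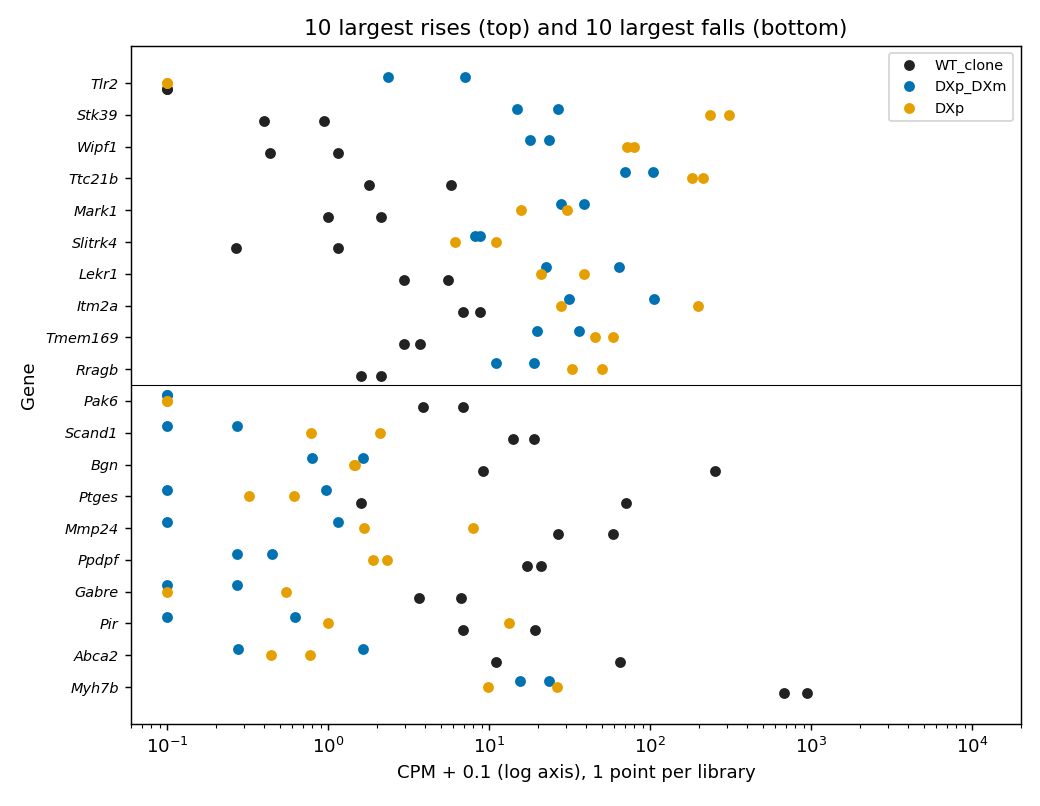
CPM plus 0.1 (log axis) in each library of WT_clone, DXp_DXm and DXp for the 10 genes with the largest rise (top) and the 10 with the largest fall (bottom). Both DXp points lie on the DXp_DXm side of both clones except for Tlr2 and Pir, and a point at 0.1 is a library with 0 counts.

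Among the 10 largest falls were genes of the matrix and of the muscle type of myosin. Myh7b, a slow-type myosin heavy chain on chromosome 2 (155611212 to 155634307, plus strand), had 942 and 681 CPM in the clones and 15.5 and 23.5 CPM in DXp_DXm. It was 41.5-fold lower (log2 change -5.37, SE 0.54, adjusted p 1.27e-04), and with offsets the change was -3.06 (adjusted p 0.0116). WT_EV held 346 to 601 CPM and DXp 26.4 and 9.73 CPM, so both deletion groups lay below both wild-type groups.

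Scand1 and Ppdpf, 2 short GC-rich genes of chromosome 2, were nearly lost. Scand1 had 18.9 and 14.0 CPM in the clones against a single count in DXp_DXm, a ratio of 191 with a counting interval of 33.9 to 7573. Ppdpf had 20.8 and 17.1 CPM against 0.349 and 0.173 CPM, a ratio of 73.1 (24.7 to 357). Both passed with offsets (adjusted p 0.0125 and 0.0119), and both were higher in WT_EV than in the clones, at 94.6 to 111 CPM for Scand1 and 41.1 to 59.9 CPM for Ppdpf. These intervals cover counting error only.

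Bgn, which encodes the matrix proteoglycan biglycan on the X, had 251 CPM in WT_clone replicate 1 and 9.13 CPM in replicate 2, against 0.698 and 1.56 CPM in DXp_DXm. The groups did not overlap, but the clones were far apart, and WT_EV, at 0.345 to 1.44 CPM, was as low as DXp_DXm. The log2 change was -6.82 (SE 1.39, adjusted p 0.00629, and 0.0332 with offsets), and it did not pass without either DXp_DXm library (adjusted p up to 0.0645). Ptges, a prostaglandin E synthase, had 1.51 and 70.7 CPM in the clones and 0 and 0.866 in DXp_DXm. Its log2 change of -6.30 became -1.75 (adjusted p 0.369) without WT_clone replicate 2, and did not pass with offsets (adjusted p 0.12) or without either DXp_DXm library.

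Pak6, a p21-activated kinase, had 3.77 and 6.77 CPM in the clones and 0 counts in both DXp_DXm and both DXp libraries, which is at least 19.9-fold lower against the floor of 3 counts over the group. Mmp24, a membrane-type matrix metalloproteinase, had 58.7 and 26.7 CPM against 1.05 and 0, and Abca2, a lipid transporter, 11.01 and 65.1 against 0.174 and 1.56. X-linked Gabre, a GABA-A receptor subunit, and Pir had 3 or fewer counts over the DXp_DXm group, with ratios of 59.6 (counting interval 10.3 to 2391) and 48.3 (16.2 to 237). None of these 5 genes passed with offsets (adjusted p 0.0603 to 0.109), and Pir in WT_EV was at 0 to 1.29 CPM, near DXp_DXm. Pak6, Gabre and Pir did not pass when either DXp_DXm library was left out (adjusted p up to 0.151), and Pir also not without WT_clone replicate 2.

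Chromosome X did not stand apart in the number of genes that passed. Of 532 X-linked genes tested, 57 were higher (10.7%) and 75 lower (14.1%), with a median log2 change of 0.23. On chromosomes 1, 2 and 3 together, 186 of 2770 were higher (6.71%) and 506 lower (18.3%), with a median of -0.06. With offsets the medians were 0.04 and -0.02, and 10 X-linked genes were higher and 30 lower. Chromosome 2 had the lowest median of the 4 chromosomes, at -0.30, with 71 of 1264 genes higher and 307 lower, and -0.05 with offsets.

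By distance from the Xist start site, 2 of 14 X-linked genes under 1 Mb were higher and 0 lower, with a median of 0.47. From 1 to 5 Mb, 5 of 52 were higher and 7 lower (median -0.10), from 5 to 20 Mb 4 of 40 were higher and 1 lower (0.62), and beyond 20 Mb 46 of 425 were higher and 67 lower (0.20). The medians had no order with distance, and with offsets they lay between 0.02 and 0.16 in all 4 classes. With offsets 0 passed under 1 Mb, and from 1 to 5 Mb 0 of 52 were higher and 5 lower. From 5 to 20 Mb 1 of 40 was higher and 1 lower, and beyond 20 Mb 9 of 425 were higher and 24 lower. Over all tested genes 2.06% were higher and 4.88% lower with offsets.

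**Figure D4:**
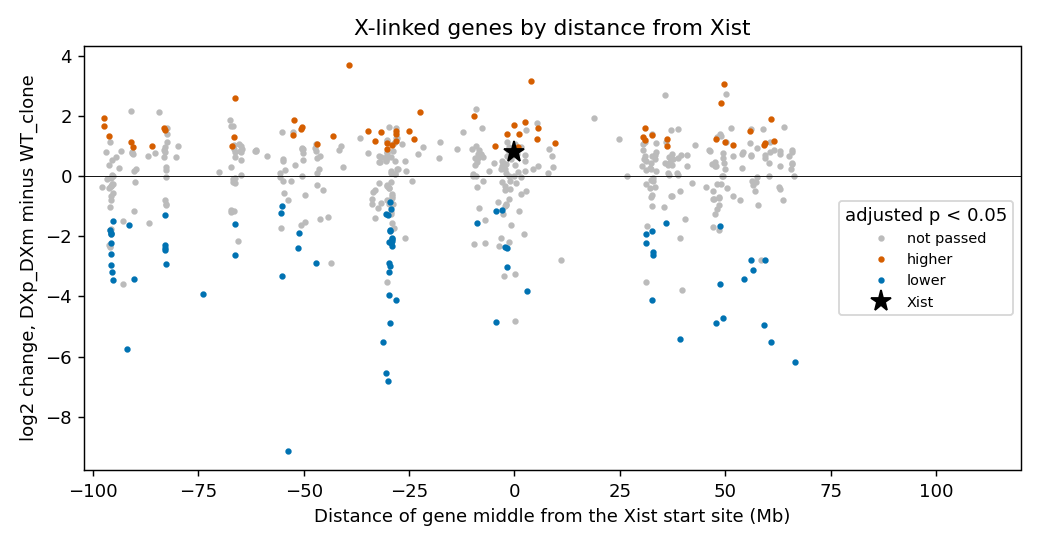
The log2 change of DXp_DXm minus WT_clone for each tested X-linked gene against the distance of its middle from the Xist start site in Mb, with genes of adjusted p under 0.05 coloured. Higher and lower genes occur along the whole chromosome, and Xist is at 0.79.

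Genes that escape X inactivation are made from both X chromosomes, and those subject to it from the active one alone. Of 12 escaping genes tested, 1 rose and 2 fell, while 9 missed the threshold, with a median log2 change of 0.57. With offsets 0 rose and 1 fell, and the median was 0.18. Kdm5c, a demethylase of histone H3 lysine 4, had 813 and 650.3 CPM in the clones and 255 and 206 in DXp_DXm, a change of -1.67 (SE 0.27, adjusted p 0.00132), but -0.40 with offsets (adjusted p 0.387). Utp14a, a factor of ribosome assembly, fell from 652 and 594 to 379 and 250.04 CPM, by 0.99 on the log2 scale (adjusted p 0.0289) and by 1.18 with offsets (adjusted p 0.037). Utp14a in WT_EV was at 378 to 407 CPM, nearer DXp_DXm than the clones. Usp9x, a deubiquitinase, rose by 0.95 and did not pass with offsets (adjusted p 0.716). The calls of Utp14a and Usp9x were lost without DXp_DXm replicate 2 (adjusted p 0.255 and 0.187) and, respectively, without WT_clone replicate 1 and without DXp_DXm replicate 1 or WT_clone replicate 2.

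Among 40 X-linked genes known to be silenced on the inactive X, 5 rose and 8 fell, while 27 missed the threshold, with a median of 0.16, beside -0.01 for all genes tested. With offsets the list median was -0.08. Uba1, the enzyme that starts ubiquitin conjugation, had 1476 and 1999.8 CPM in the clones and 379 and 335 in DXp_DXm. Its change was -2.28 (SE 0.34, adjusted p 8.90e-04) and -1.26 with offsets (adjusted p 0.0259), the 1 gene of the list that passed under both fits. Cdk16, its neighbour on the X, fell by 2.45 and G6pdx, the first enzyme of the pentose phosphate pathway, by 2.10, and neither passed with offsets (adjusted p 0.0554 and 0.116). Phf6, a chromatin protein, had 46.9 and 43.3 CPM against 137 and 127 CPM, a change of 1.55 (adjusted p 0.00442, and 0.15 with offsets). Reads were not assigned to the parental alleles, so the values do not tell the active from the inactive X.

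Proteins that bind Xist RNA or act with it were split. Of 8 tested, 3 rose and 1 fell, while 4 missed the threshold. Ciz1, a nuclear matrix protein that holds Xist RNA on the chromosome, had 358 and 256 CPM in the clones and 20.8 and 38.3 CPM in DXp_DXm. It was 10.4-fold lower (log2 change -3.38, SE 0.38, adjusted p 2.13e-04), and with offsets the change was -1.57 (adjusted p 0.0332). DXp held 24.6 and 20.7 CPM and WT_EV 226 to 296 CPM, so both deletion groups were below all 5 wild-type libraries.

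Ogt, which adds O-linked N-acetylglucosamine to nuclear proteins, rose from 1408 and 1239 to 2863 and 4152 CPM (log2 change 1.41, adjusted p 0.00478). Bmi1, a subunit of polycomb repressive complex 1, rose from 215 and 243 to 632 and 561 CPM (1.38, adjusted p 0.00629). Rbbp7, a histone-binding subunit of polycomb repressive complex 2, rose by 1.04 (adjusted p 0.0218), a call lost without DXp_DXm replicate 2 or WT_clone replicate 1 (adjusted p up to 0.142). With offsets none of the 3 passed (adjusted p 0.0674, 0.237 and 0.267).

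Of 18 polycomb and repressive chromatin genes tested, 4 rose and 5 fell, while 9 missed the threshold, with a median of 0.08. With offsets 0 rose and 1 fell, and the median was -0.22. Bcorl1, an X-linked corepressor, had 170.5 and 94.5 CPM in the clones and 9.07 and 17.5 CPM in DXp_DXm, a change of -3.32 (adjusted p 6.78e-04) and of -1.68 with offsets (adjusted p 0.0384). Ehmt1, a methyltransferase of histone H3 lysine 9, fell from 419 and 425 to 125 and 165 CPM (-1.54, adjusted p 0.00353), but did not pass with offsets (adjusted p 0.17). Among 8 genes of cohesin, condensin and chromosome architecture, 0 rose and 0 fell, with a median of -0.09.

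Of the 3 endoderm lists, which share Fn1, Snai1, Thbd, Cubn and other members, each had more genes lower than higher, as did all tested genes (17.6% lower, 7.36% higher). Of 19 primitive endoderm and XEN genes, 3 rose and 4 fell, while 12 missed the threshold, with a median log2 change of -1.37. With offsets 0 rose and 1 fell, and the median was -0.09. The lists' GC content is high, with a median of 51.5% for this list and 55.3% for the visceral endoderm.

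Fn1, the matrix protein fibronectin, had 2676 and 476 CPM in the clones and 81.0 and 200.3 CPM in DXp_DXm (-3.49, SE 0.85, adjusted p 0.0145). Snai1, a repressor that drives epithelial-mesenchymal transition, had 231 and 19.6 CPM against 5.93 and 6.58 CPM (-4.32, SE 0.92, adjusted p 0.00765). In both genes WT_clone replicate 1 was far above replicate 2, and neither passed with offsets (adjusted p 0.147 and 0.209) or without either DXp_DXm library (adjusted p up to 0.124). Fn1 also did not pass without WT_clone replicate 1. WT_EV held 30.9 to 65.9 CPM of Fn1, below both DXp_DXm libraries. DXp held 185 and 519 CPM of Fn1, so DXp replicate 2 lay above WT_clone replicate 2. Mbnl3, an X-linked splicing factor, rose from 22.8 and 12.3 to 70.0 and 58.0 CPM (1.86, adjusted p 0.0162), and did not pass with offsets (adjusted p 0.147) or without DXp_DXm replicate 1 or WT_clone replicate 2 (adjusted p up to 0.0828).

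Visceral endoderm genes numbered 8 tested, with 1 higher, 2 lower and 0 that passed with offsets. Cubn, the receptor cubilin that takes up proteins in the yolk sac, had 1204 and 1406 CPM in the clones, 1688 CPM in DXp_DXm replicate 1 and 7767 CPM in replicate 2. The change of 1.86 (adjusted p 0.0463) was 0.44 without that replicate (adjusted p 0.547), and it did not pass without either clone. Ctsz, a lysosomal carboxypeptidase, had 701 and 165 CPM against 48.2 and 69.1 CPM (-2.88, adjusted p 0.00528), and -0.76 with offsets (adjusted p 0.455). It did not pass without DXp_DXm replicate 1 (adjusted p 0.0557).

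Of 10 parietal endoderm genes, 1 rose and 4 fell, while 5 missed the threshold, with a median of -1.49. With offsets 0 rose and 1 fell, and the median was -0.75. Lama5, the laminin alpha 5 chain, had 531 and 947 CPM in the clones and 9.25 and 55.4 CPM in DXp_DXm, a change of -4.51 (SE 0.74, adjusted p 0.00184) and of -2.25 with offsets (adjusted p 0.068). Procr, the endothelial protein C receptor, fell from 262 and 125 to 55.5 and 32.9 CPM (-2.13, adjusted p 0.00424) and passed with offsets (-1.55, adjusted p 0.0489), though not without DXp_DXm replicate 2 (adjusted p 0.0541). The gene that rose was Thbd, thrombomodulin, with 1 count over the clones and 4.01 and 2.08 CPM in DXp_DXm, a ratio of 19.1 (counting interval 4.90 to 164). WT_EV held 1.73 to 3.22 CPM, near DXp_DXm. Its call was lost with DESeq2, with offsets (adjusted p 0.0508), and without either DXp_DXm library or WT_clone replicate 2 (adjusted p up to 0.16).

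Of 14 matrix and basement membrane genes tested, 0 rose and 7 fell, while 7 missed the threshold, with a median of -1.45, and with offsets 4 of the 14 fell, with a median of -0.92. The 4 were Gpc4, Gpc3, Timp1 and Bgn, all on the X. Gpc4, a heparan sulphate proteoglycan of the cell surface, had 616 and 496 CPM in the clones and 115 and 96.3 CPM in DXp_DXm, a log2 change of -2.39 (SE 0.35, adjusted p 7.34e-04) and of -1.88 with offsets (adjusted p 0.0149). Its neighbour Gpc3, of the same family, had 943 and 2135 against 277 and 546 CPM (-1.90, adjusted p 0.0178, and -2.03 with offsets, adjusted p 0.041). In WT_EV Gpc3 stood at 268 to 415 CPM, near DXp_DXm and below both clones. Gpc3 did not pass without DXp_DXm replicate 1 or without WT_clone replicate 2 (adjusted p up to 0.129).

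Timp1, an inhibitor of matrix metalloproteinases, fell from 115 and 63.8 to 13.8 and 9.70 CPM (-2.93, SE 0.44, adjusted p 8.90e-04) and by 1.54 with offsets (adjusted p 0.0483). In WT_EV Gpc4 stood at 107 to 167 CPM, below both clones and within reach of DXp_DXm, whereas Timp1 stood at 137 to 224 CPM, above every library compared. The largest member, Lamc1, had 123901 CPM in WT_clone replicate 1, 27995 in replicate 2, and 30106 and 26224 in DXp_DXm. Its change of -1.43 (adjusted p 0.082) did not pass, and without WT_clone replicate 1 it was 0.05 (adjusted p 0.953) and without replicate 2 -2.15 (adjusted p 8.91e-04).

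Of 14 ribosomal protein genes tested, 0 rose and 7 fell, while 7 missed the threshold, with a median log2 change of -1.87, and with offsets 6 fell, with a median of -1.53. Rpl7a, a protein of the large subunit, had 2690.3 and 4486 CPM in the clones and 151 and 183 CPM in DXp_DXm. It was 21.5-fold lower (log2 change -4.43, SE 0.42, adjusted p 1.26e-04), with -3.61 under offsets (adjusted p 0.00409). Rpl35 had 2074 and 2782 against 164 and 222 CPM (-3.65, SE 0.35, adjusted p 1.26e-04), and -1.54 with offsets (adjusted p 0.0157). For both genes DXp was at the level of DXp_DXm, at 182 and 113 CPM for Rpl7a and 106 and 153 CPM for Rpl35, while WT_EV lay at 4160.3 to 6676 CPM for Rpl7a and 1613 to 2195 CPM for Rpl35.

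Rpl12 fell from 2790.0 and 4215 to 481 and 713 CPM (-2.55, adjusted p 0.00131), and Rps21, of the small subunit, from 427 and 1165 to 110.3 and 152 CPM (-2.60, adjusted p 0.00152). Both passed with offsets, at -1.89 and -1.65, and all 4 kept their calls when any 1 library of the comparison was left out. Ribosomal protein genes have many near-identical pseudogene copies, and no source states how reads mapping to several places were counted, so the split of reads between a gene and its copies is uncertain.

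The 250 bases before the start sites of these 4 genes are shown because each of the 4 fell under both fits. They are RefSeq sequences of GRCm38.p6, at chr2:26910557-26910806 (Rpl7a, plus strand), chr2:39005132-39005381 (Rpl35, minus strand), chr2:32961462-32961711 (Rpl12, plus strand) and chr2:180257129-180257378 (Rps21, plus strand). Capitals mark matches to CCGGAA on either strand, the core letters of sites of the ETS family of transcription factors. Of the 14 tested genes 13 had a promoter entry, and 4 of the 13 (30.8%) held a match, against 3952 of 32851 windows of this length. Their GC content was 67.6%, 67.2%, 62.4% and 60.8% in the order given.
Rpl7a: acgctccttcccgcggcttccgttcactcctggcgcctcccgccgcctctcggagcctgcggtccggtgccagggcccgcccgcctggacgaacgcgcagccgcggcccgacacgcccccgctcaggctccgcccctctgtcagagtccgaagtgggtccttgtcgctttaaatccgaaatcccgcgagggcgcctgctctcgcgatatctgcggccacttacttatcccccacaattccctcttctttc
Rpl35: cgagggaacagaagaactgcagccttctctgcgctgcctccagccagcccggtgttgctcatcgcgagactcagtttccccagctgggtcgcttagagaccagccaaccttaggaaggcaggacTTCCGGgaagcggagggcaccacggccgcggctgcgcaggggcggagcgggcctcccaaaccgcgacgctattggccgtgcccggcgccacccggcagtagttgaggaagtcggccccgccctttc
Rpl12: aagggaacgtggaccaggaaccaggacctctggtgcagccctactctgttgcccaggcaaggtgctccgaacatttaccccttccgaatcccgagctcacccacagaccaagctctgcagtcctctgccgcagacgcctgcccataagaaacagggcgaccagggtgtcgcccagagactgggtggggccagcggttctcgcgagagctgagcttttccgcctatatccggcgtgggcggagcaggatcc
Rps21: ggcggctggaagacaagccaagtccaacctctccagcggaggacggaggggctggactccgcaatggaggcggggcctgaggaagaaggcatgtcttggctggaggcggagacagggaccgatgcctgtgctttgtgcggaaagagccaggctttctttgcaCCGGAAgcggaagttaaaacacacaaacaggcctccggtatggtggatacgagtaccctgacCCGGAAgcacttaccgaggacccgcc

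Of 19 nuclear genes of the respiratory chain tested, 2 rose and 8 fell, while 9 missed the threshold, with a median of -0.63. With offsets 1 rose and 4 fell, and the median was 0.05. Ndufa8, a subunit of complex I, had 125 and 159 CPM in the clones and 9.42 and 11.6 CPM in DXp_DXm, a change of -3.75 (SE 0.37, adjusted p 1.26e-04) and of -1.94 with offsets (adjusted p 0.0119). Cox5b, of complex IV, fell from 367 and 312 to 69.4 and 52.3 CPM (-2.48, adjusted p 3.57e-04, and -2.31 with offsets, adjusted p 0.0056). Sdhc, of complex II, fell by 1.74 and passed with offsets (-1.70, adjusted p 0.0259), though not without DXp_DXm replicate 1 (adjusted p 0.0558).

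Of 19 lysosome and endocytosis genes tested, 4 rose and 6 fell, while 9 missed the threshold. Over all tested genes 7.36% were higher and 17.6% lower. Ctsa, a lysosomal carboxypeptidase that protects neuraminidase, had 1402 and 1135 CPM in the clones and 144 and 163 CPM in DXp_DXm (-3.05, SE 0.29, adjusted p 1.26e-04, and -1.38 with offsets, adjusted p 0.0178). Vps18 and Vps16, core subunits of the tethering complexes that fuse endosomes and lysosomes, fell by 3.82 and 2.24 (adjusted p 1.68e-04 and 0.00123), and by 1.62 and 1.42 with offsets (adjusted p 0.047 and 0.0237). Vps18 had 91.9 and 115 against 5.06 and 9.52 CPM, and Vps16 223 and 221 against 51.5 and 42.8 CPM. For these 3 genes every DXp_DXm library was below both clones, as was every DXp library.

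Cell-cycle genes passed in both directions, beside 7.36% higher and 17.6% lower over all tested genes. Of 15 DNA replication genes 4 rose and 2 fell, while 9 missed the threshold, and of 21 mitosis and spindle genes 5 rose and 4 fell, while 12 missed the threshold. Rbl1, the pocket protein p107 that holds E2F factors in check, rose from 25.2 and 4.90 to 96.5 and 132 CPM (2.92, SE 0.61, adjusted p 0.00597), and by 2.34 with offsets (adjusted p 0.0384). E2f1, a factor that turns on replication genes, fell from 81.9 and 25.7 to 5.76 and 6.41 CPM (-3.14, adjusted p 0.00246), and did not pass with offsets (adjusted p 0.273). Dtl, of the DNA replication list, rose from 558 and 409 to 1282 and 1119 CPM (1.31, adjusted p 0.00902). It did not pass with offsets (adjusted p 0.159) or without DXp_DXm replicate 1.

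Cks1b, a partner of cyclin-dependent kinases, fell from 305 and 329 to 87.6 and 115 CPM (-1.65, adjusted p 0.00285), and by 1.29 with offsets (adjusted p 0.0317). Ube2c, Aurka and Cdc25b, which act in mitosis, fell by 2.71, 1.54 and 1.82 and did not pass with offsets (adjusted p 0.0983, 0.123 and 0.658). Aurka did not pass without DXp_DXm replicate 1 and Cdc25b not without replicate 2 (adjusted p 0.0569 and 0.0862). The genes named were among those with the lowest p of each list, while both lists had more higher than lower members. With offsets 1 gene of the 2 lists rose (Rbl1) and 1 fell (Cks1b).

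In signalling, 2 of 16 FGF, MAPK and immediate early genes fell and 0 rose, beside 17.6% lower and 7.36% higher over all tested genes. Dusp9, an X-linked phosphatase that removes phosphate from ERK, had 548 and 802 CPM in the clones and 50.3 and 36.9 CPM in DXp_DXm. It was 15.5-fold lower (log2 change -3.95, SE 0.40, adjusted p 1.48e-04), and with offsets the change was -1.85 (adjusted p 0.0119). DXp held 25.1 and 36.5 CPM and WT_EV 1647 to 2999 CPM, so the order of the groups was WT_EV, WT_clone and then the deletions, whose ranges nearly met. Spry1, an inhibitor of receptor tyrosine kinase signalling, had 18.7 and 32.8 against 0.349 and 1.90 CPM (-4.48, adjusted p 0.00442), and did not pass with offsets (adjusted p 0.0822). Of 10 BMP, Nodal and TGF-beta genes 0 rose and 0 fell, and of 8 WNT and hedgehog genes 2 fell, with 0 that passed with offsets.

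Of 11 genes of the endoplasmic reticulum and its stress response, 2 rose and 2 fell, while 7 missed the threshold. Pdia3, a disulphide isomerase, had 7598 and 4804 CPM in the clones and 16592 and 17353 CPM in DXp_DXm (1.45, SE 0.32, adjusted p 0.00787), and 1.19 with offsets (adjusted p 0.0381). Hspa5, the chaperone BiP, rose from 6357 and 7442 to 20172 and 13572 CPM (1.29, adjusted p 0.0137), and did not pass with offsets (adjusted p 0.0771) or without DXp_DXm replicate 1 (adjusted p 0.121). Ssr2, a subunit of the translocon-associated complex, and Edem2, which marks misfolded glycoproteins for degradation, fell by 2.20 and 1.58, and neither passed with offsets (adjusted p 0.47 and 0.61).

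Of 8 cholesterol and lipid genes 2 rose and 3 fell, while 3 missed the threshold. Acss2, which makes acetyl-CoA from acetate, had 206 and 165 CPM in the clones and 40.8 and 45.7 CPM in DXp_DXm (-2.10, SE 0.35, adjusted p 0.00163, and -2.14 with offsets, adjusted p 0.0119). Nsdhl, an X-linked enzyme of cholesterol synthesis, fell from 153 and 148 to 70.3 and 56.1 CPM (-1.25, adjusted p 0.0166, and -1.66 with offsets, adjusted p 0.0149). Insig2, which retains the SREBP complex in the endoplasmic reticulum, rose by 1.52 (adjusted p 0.0148, and 0.102 with offsets). In WT_EV Nsdhl was at 74.7 to 92.1 CPM, between the other groups. Nsdhl did not pass without either DXp_DXm library and Insig2 not without DXp_DXm replicate 2 or WT_clone replicate 1 (adjusted p up to 0.151).

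Of 6 interferon genes 1 rose and 1 fell. Samhd1, an enzyme that breaks down deoxynucleoside triphosphates, rose from 159 and 109.9 to 247 and 331 CPM (1.10, adjusted p 0.028, and 1.37 with offsets, adjusted p 0.0246). Its call was lost without DXp_DXm replicate 2 or WT_clone replicate 2, without WT_EV (adjusted p 0.0714) or in the 4 libraries alone. It was also lost with a term for the replicate number (adjusted p 0.0529). Adar, the RNA-editing deaminase, fell by 2.28 (adjusted p 0.00786), and did not pass with offsets (adjusted p 0.294) or without DXp_DXm replicate 2 (adjusted p 0.081). Other lists, to be read beside 7.36% higher and 17.6% lower over all tested genes, had 1 higher and 1 lower of 7 heat shock chaperones, 1 higher and 2 lower of 8 p53 targets, 1 lower of 8 glycolysis and hypoxia genes, 2 lower of 5 genes of the insulin-like growth factor system, 1 lower of 10 integrins and adhesion genes, 3 lower of 13 imprinted genes, 3 lower of 10 epithelial genes and 1 higher of 8 germline genes. With offsets 1 imprinted gene was higher, and 1 gene each of the growth factor and adhesion lists was lower. In the rest of these lists 0 passed with offsets.

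**Figure D5:**
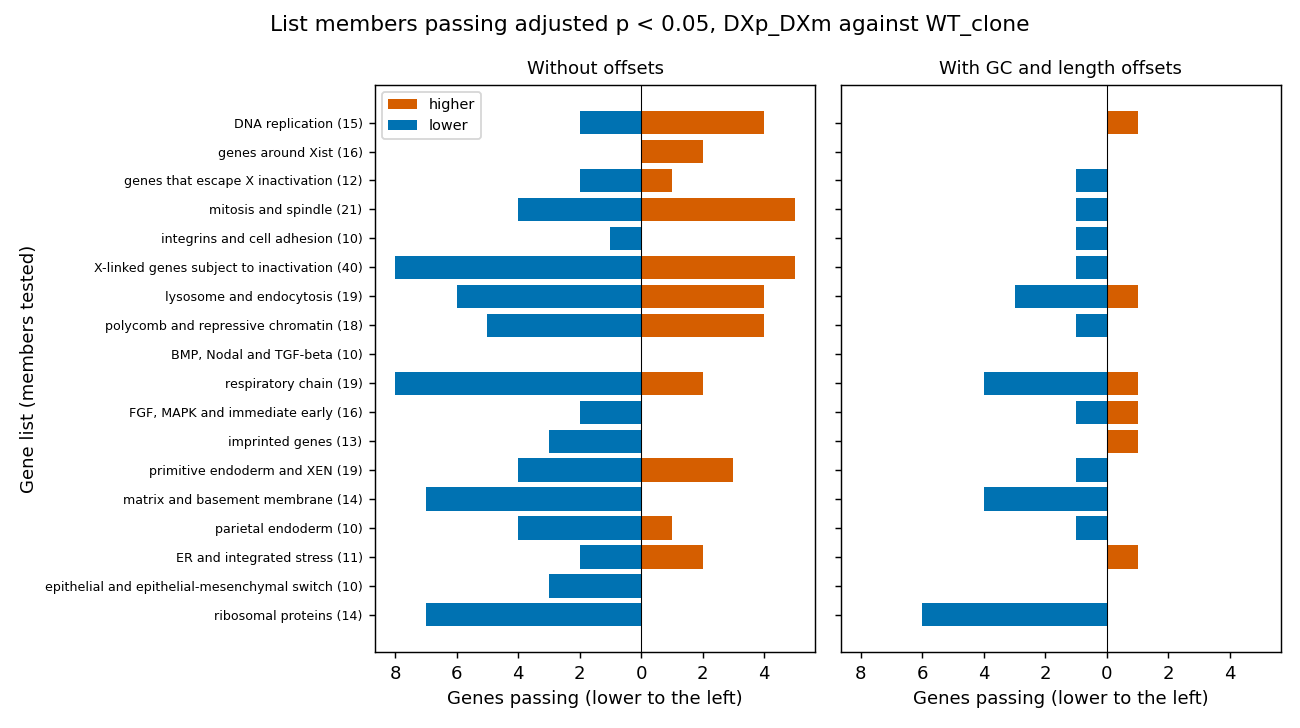
Number of genes with adjusted p under 0.05 in each list with at least 10 tested members (in brackets), higher to the right and lower to the left, without offsets (left panel) and with offsets for GC content and length (right panel). Ribosomal protein genes have 7 lower members on the left and 6 on the right, and most other lists have fewer on the right.

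Markers of other cells were summed over each list. Of 8 pluripotency genes held, 4 were tested and 0 passed, though 1 was higher with offsets. Lefty2 and Nr0b1 had 0 counts in the 4 libraries. The summed level of the 8 genes was 3405 and 4052 CPM in the clones and 2462 and 2365 CPM in DXp_DXm. Of 12 fibroblast genes 2 were tested and 1 rose: the sum was 943 and 843 CPM against 2419 and 2086 CPM, while Col3a1, Fmod, Grem1, Tnmd and Twist2 had 0 counts. That gene was Mme, the membrane peptidase neprilysin, at 416 and 641 against 2129 and 1579 CPM (1.81, SE 0.30, adjusted p 0.00151, and adjusted p 0.116 with offsets).

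The trophoblast list, of which 0 members were at 0 counts in all 4 libraries, summed to 199.9 and 167.4 CPM in the clones and 38.7 and 91.4 CPM in DXp_DXm, with 1 of 4 tested genes lower. It was Elf3, an epithelial ETS factor, at 175 and 103 against 20.8 and 54.9 CPM (-1.88, adjusted p 0.0359), and 0.01 with offsets (adjusted p 1). Elf3 did not pass without DXp_DXm replicate 1 or without WT_clone replicate 1 (adjusted p up to 0.192). Blood markers summed to at most 21.6 CPM and nerve markers to at most 55.8 CPM in the 4 libraries, with Cybb, Cd40lg and Stmn2 at 0 counts. Of 2 blood genes tested 1 was lower, and 0 passed with offsets. Of 5 nerve genes tested 0 passed, though 1 was higher with offsets. The part of such cells in any result was not tested, and in bulk samples fewer cells of a type and less RNA per cell cannot be told apart.

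The homozygous and the paternal deletion, which differ in the allele on the maternal X and in the name in their titles (D3 and D1), were set against each other in the same fit. Genotype and line cannot be told apart here if D3 and D1 are separate lines. Of 3302 genes, 6 passed (0.182%), 4 higher and 2 lower in DXp_DXm, and 541 had an unadjusted p under 0.05. DESeq2 called 167, and the count fell to 0 or 1 when any 1 of the 4 libraries was left out. Of the named genes, Stk39 is described above.

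Armcx3, an X-linked mitochondrial outer membrane protein, had 141 and 86.4 CPM in DXp, 2.41 and 4.06 in WT_clone and 0 and 0.519 in DXp_DXm (3 counts in all). The difference of DXp_DXm from DXp was a log2 change of -8.63 (SE 1.33, adjusted p 0.0407), and every DXp library was far above every other library. Against the clones DXp_DXm did not pass (adjusted p 0.0641). Its neighbour Armcx1, of the same family and chosen after its values were seen, had 280.0 and 191 CPM in DXp, 196 and 259.8 in WT_clone and 54.8 and 43.3 in DXp_DXm. Armcx1 passed against the clones (-2.22, SE 0.46, adjusted p 0.00562, and -2.78 with offsets, adjusted p 0.00976), though not without DXp_DXm replicate 2 (adjusted p 0.0583), and did not pass against DXp (-2.26, adjusted p 0.0723).

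Dut, the enzyme that keeps uracil out of DNA, had 70.2 and 75.0 CPM in DXp, 447 and 289 in DXp_DXm and 293 and 272 in WT_clone. The log2 difference between DXp_DXm and DXp was 2.34 (SE 0.30, adjusted p 0.0245), and the clones lay near the lower DXp_DXm library. Hsd17b7, of cholesterol and steroid synthesis, had 28.4 and 32.1 CPM in DXp, 149 and 106 in DXp_DXm and 137 and 99.96 in WT_clone, with a difference from DXp of 2.07 (SE 0.34, adjusted p 0.0463). For both genes DXp stood low beside DXp_DXm and the clones. The remaining higher genes, the processed pseudogenes Gm15583 and Gm5835, were at 5.41 and 4.85 against 0 CPM and at 93.0 and 83.6 against 22.8 and 22.7 CPM in DXp. With offsets Armcx3, Dut, Hsd17b7 and Gm15583 passed against DXp (adjusted p 0.0324) and Gm5835 did not (adjusted p 0.0893).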

How the data were processed

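RNA-seq libraries of 9 XEN cell samples were analysed as gene counts. The submitters' processing notes name FastQC, STAR 2.7.9a, featureCounts 2.0.1 and the build GRCm38, without their settings. The authors deposited raw read counts per gene in 2 tables, and the clone table was held in part. Genes were kept where filterByExpr passed them (3302 of 11512), and library sizes were normalised by TMM. Tests were two-sided and used the quasi-likelihood method of edgeR 4.0.16 (robust, R 4.3.3), with group as the only term over all 9 libraries. P-values were adjusted by Benjamini-Hochberg over all tested genes, and a gene passed under 0.05. The biological coefficient of variation was 39.3%. Library totals of the shared genes ran from 2298180 to 7641676 counts, which limits genes of a few counts.

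Offsets were per-library curves of a gene's log2 CPM minus its mean over all 9 libraries, the compared groups among them. The curves were fitted on the GC content of a gene's longest transcript (GENCODE M21) and the log2 of the deposited gene length. Fold bounds used a floor of 3 counts over a group, and ratios with 1 to 3 counts have exact 95% counting intervals. Alternatives were RLE size factors, DESeq2 1.42.0, no filter, fewer groups, offsets, autosomal scaling, a replicate block and each library left out. The rule for named genes took, among genes that passed with a mean of at least 2 CPM and groups that did not overlap, the 10 largest rises and falls outside predicted genes, plus Xist, genes around it and up to 4 members of a list with the lowest p. Some genes, around Xist and elsewhere, are not reported here. The groups, rule and 37 gene lists were chosen with earlier results of these data known. The scripts were tested on simulated data.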

Additional observations from a re-analysis of the deposited data

How the results depend on the processing

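Of the 824 genes, 0 passed in the opposite direction under any alternative run. The count of 824 was 821 with RLE size factors, 823 with autosomal scaling, 942 without the filter and 1008 with DESeq2, which called 383 higher. It was 579 without WT_EV (137 higher), 436 in a fit of the 4 libraries alone (75 higher, 361 lower), 229 with offsets (68 higher, 161 lower) and 164 with offsets and the replicate block together (45 higher, 119 lower), the last chosen after seeing the data. Leaving out 1 library gave 415 to 949 (102 to 340 higher, 313 to 609 lower), with the lone library of a group assumed to vary like the other groups.

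With the replicate block 750 genes passed (199 higher, 551 lower). The samples share only a number: deviations of same-numbered DXp_DXm and WT_clone libraries correlated at 0.248 and of DXp_DXm and DXp at -0.162. Of 87 named genes that passed, 21 kept their call in every alternative. With offsets 47 kept their direction but lost the call, and Cst3, Dnajb2 and Elf3 lost it with a change of sign. The block took the call from 6 (Cubn, Itm2a, Samhd1, Soat1, Usp9x and Xlr3c).

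For DXp_DXm against DXp the 6 calls were 167 with DESeq2, 186 without the filter, 1 without WT_EV, 15 in the 4 libraries alone, and 0 to 1 with a library left out. With the DXp numbers crossed the block gave 21, chosen after seeing the data. Xist in that comparison passed with DESeq2 (-1.29, adjusted p 0.0466) and without the filter (-1.20, adjusted p 0.0203); the cause was not tested. Cst3, of the primitive endoderm and XEN list (-2.12, adjusted p 0.0032), and Dnajb2, of the heat shock list (-2.06, adjusted p 0.0295), passed in the main fit. With offsets the log2 change against WT_clone turned to 0.0441 for Cst3, 0.0362 for Dnajb2 and 0.0118 for Elf3. With offsets and the block it turned to 0.0828 for Cst3, 0.10 for Dnajb2 and 0.0231 for Lamc1. With a library left out Lamc1 ranged from -2.15 (without WT_clone replicate 2) to 0.0499 (without WT_clone replicate 1). With 2 libraries a group, these p-values rest on a spread shared with the other groups.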
